A study of Mus musculus with 4 samples.

Results

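Genes often read as signs of antigen-presenting cancer-associated fibroblasts (CAFs) were followed through single wells of sorted CAFs: the MHC class II genes Cd74, H2-Aa, H2-Ab1, H2-Eb1 and H2-DMa, and the genes Slpi, Saa3 and Saa1. They were chosen by name, and all 8 members were found among the 16305 genes of the series. Cells sorted as CAFs came from tumours called APTKA in the labels, an abbreviation not spelled out there, which had been transplanted into the colon of female mice of strain C57BL6J and were not treated. There was 1 group of 4 samples, each a tumour sorted into a plate of 384 wells, and no control group. The labels state neither the age of the mice nor the sort gate, and nothing says that the 4 tumours came from separate mice, so the p-values below measure only the spread between these plates. RNA was read by SORT-seq, in which each well is meant to hold 1 cell and unique molecular identifiers (UMIs) count the molecules.

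MHC class II molecules carry peptides from outside the cell to CD4+ T cells. H2-Aa and H2-Ab1 encode the chains of the I-A molecule, H2-Eb1 encodes the beta chain of I-E, Cd74 encodes the invariant chain that guards the groove until it is loaded, and H2-DMa encodes a chain of the chaperone that swaps in the peptide. Professional antigen-presenting cells make these genes under the master regulator Ciita. Fibroblasts of several tumours have been described with class II genes together with Slpi, a secreted inhibitor of leukocyte proteases, and Saa3, an acute-phase serum amyloid A protein made outside the liver, and such cells have been linked to the mesothelium. Saa1 encodes a serum amyloid A that the liver secretes in the acute phase.

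On the GRCm38 assembly (GENCODE annotation), which is the mm10 build of the deposited values, H2-DMa lies at chr17:34119541-34139101 (+), H2-Ab1 at chr17:34257689-34269419 (+), H2-Aa at chr17:34282744-34287823 (-) and H2-Eb1 at chr17:34305867-34316674 (+). Cd74 lies on another chromosome. Slpi is at chr2:164354070-164389095 (-), and Saa3 at chr7:46711998-46715700 (-) is a near neighbour of Saa1 at chr7:46740497-46742980 (-). All 8 are protein-coding genes, and values are given per gene. The last 300 bases of the longest coding transcripts of Saa1 and Saa2 were 92.4% identical, so how UMIs were split between those genes is uncertain. Saa1 and Saa3 were 47.9% identical there, and H2-Eb1 and H2-Eb2 51.6%.

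Saa1 and Saa3 were found in many of the same wells, so the 250 bases before both start sites are printed, from the RefSeq promoter table (GRCm38.p6), which held 6 of the 8 members. Capitals mark the only match in each to TTGCNNAA, a form of the C/EBP motif, on either strand. Saa3 is taken from chr7:46715677-46715926 (-) and Saa1 from chr7:46742981-46743230 (-).
Saa3: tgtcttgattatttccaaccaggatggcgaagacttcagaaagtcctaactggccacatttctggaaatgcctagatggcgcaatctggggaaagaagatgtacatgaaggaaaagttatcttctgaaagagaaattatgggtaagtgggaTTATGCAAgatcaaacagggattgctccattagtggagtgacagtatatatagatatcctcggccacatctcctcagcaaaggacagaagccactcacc
Saa1: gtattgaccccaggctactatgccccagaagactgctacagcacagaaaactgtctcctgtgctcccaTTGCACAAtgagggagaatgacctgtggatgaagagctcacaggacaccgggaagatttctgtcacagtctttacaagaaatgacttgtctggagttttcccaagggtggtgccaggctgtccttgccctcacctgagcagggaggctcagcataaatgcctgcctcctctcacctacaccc
Counted from the RefSeq start, which for Saa3 lies inside the GENCODE gene given above, the match spans bases -99 to -92 in Saa3 and -182 to -175 in Saa1, and Slpi has one at -241 to -234. Among all promoters in that table, 9.56% held the motif in this window. CTGATTGG, the CCAAT-type box of class II promoters, was found in H2-Aa at -51 to -44 and in H2-Eb1 at -62 to -55, and in 3.83% of all promoters. These matches are letters only.

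Wells were kept with at least 1000 transcripts, spike-ins left out, and at most 30% mitochondrial transcripts: 43, 250, 243 and 204 wells in plates 1, 2, 3 and 4, or 740 of 1536. Plate 1 was the poorest, with 612734 transcripts against 2727191 to 3165550 in the other plates and a median mitochondrial share of 14.4% in kept wells against 5.25 to 6.14%. Wells were grouped by marker lists that hold none of the 8 genes. A well with at least 3 fibroblast markers (such as Col1a1, found in 99.4% of them, and Pdgfra, 81.2%) and no other class was called a fibroblast-marker well (26, 180, 161 and 129, in all 496). Inside these, 167 wells matched best an inflammatory CAF (iCAF) list with genes such as Il6 and Cxcl12, and 220 a contractile and matrix CAF (myCAF) list with genes such as Acta2 and Tnc. Wells that met a smooth muscle list (98) or a pericyte list (87) are named by the list alone, since Pdgfra was found in 59.2 and 74.7% of them and 43 and 44 had exactly the 3 markers needed. No kept well met the immune or the epithelial list alone, and 1 met the mesothelial list alone.

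The 5 class II genes were nearly absent. All kept wells together held 102 class II UMIs: 46 of H2-Ab1, 15 of H2-Aa, 15 of H2-DMa, 14 of Cd74 and 12 of H2-Eb1. Their summed level was 0.126, 0.186, 0.0835 and 0.0602 transcripts per 10000 in plates 1 to 4, a mean of 0.114 ± 0.0554 (SD, n = 4 plates). By gene, H2-Ab1 had the highest mean level, 0.0552 ± 0.0346 per 10000, and H2-Eb1 the lowest, 0.01004 ± 0.0136, with 0 UMIs in plates 1 and 3. The means of the other three lay between 0.0129 and 0.0187, and these neighbours did not differ beyond their spread (n = 4).

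Wells with class II UMIs mostly held 1 of them. Of 740 wells, 69 (9.32%, 95% exact Clopper-Pearson interval 7.33 to 11.7) had at least 1 of them, and they were 4, 37, 14 and 14 wells in plates 1 to 4. Of the 69, 49 wells held 1 UMI, 13 held 2 and 7 held 3 or more, and the highest had 7, all of H2-Ab1. In 63 wells only 1 of the 5 genes was found, in 6 wells 2 genes, and in no well 3 or more. Intervals here cover counting error only. These wells were deeper than the rest, with a median of 14100 against 7968 transcripts; after thinning all wells to 1000 UMIs, 16 of 740 still had a class II UMI.

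Immune markers were sparse in wells with and without class II. Transcripts of the 24 immune markers were found in 10 of the 69 wells (14.5%) and in 66 of the 671 others (9.84%), with summed levels of 0.0710 to 0.461 (3 plates with enough such wells) and 0.0788 to 0.143 per 10000 (4 plates). Of the 24 markers 16 were measured, and 11 of these were found in the class II wells. Ptprc (CD45), which all leukocytes carry, was at 0 there and had 1 UMI elsewhere. One well of plate 3 stood apart with 5 immune markers (Tyrobp, Fcer1g, Csf1r, Coro1a and Cd52, 1 or 2 UMIs each), 3 Cd74 UMIs and 45 Slpi UMIs, beside 512 Col1a1 and 24 Pdgfra UMIs. Of the 10 mesothelial markers 7 were measured, and 5 of these were found in the 69 wells. Their summed level was 0 to 0.293 per 10000 over the plates, against 0.0310 to 0.171 in the other wells.

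The rest of the class II pathway was uneven. Of 26 listed genes 19 were measured. Ciita, the master regulator, had 1 UMI in 740 wells, and Ctss, the protease that trims the invariant chain in dendritic and B cells, also 1. H2-DMb1, partner of H2-DMa, was at 0.05002 ± 0.00825 per 10000 (n = 4). Genes with wider roles were common: Ctsl, a lysosomal protease, stood at 5.65 ± 1.06, the interferon-induced factor Irf1 at 1.02 ± 0.198 and the interferon gamma receptor chain Ifngr1 at 1.001 ± 0.1503 (n = 4).

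Slpi was rare, and most of its UMIs lay in a few wells. It was found in 43 of 740 wells (5.81%, interval 4.24 to 7.75), namely 1, 10, 12 and 20 wells in plates 1 to 4, with 464 UMIs in all. Of these wells 17 held 1 UMI, 14 held 2 to 9 and 12 held 10 or more, up to 78, and the 12 carried 85.3% of all Slpi UMIs. The level over kept wells was 0.0253, 0.112, 0.715 and 0.877 per 10000, a mean of 0.432 ± 0.426 (n = 4). Plates 3 and 4 were well above plates 1 and 2.

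Saa3 was the most abundant of the 8 genes. It was found in 240 wells (32.4%, interval 29.1 to 35.9; 2, 111, 76 and 51 wells by plate), with 6705 UMIs. Its level was 0.634, 6.62, 12.3 and 5.79 per 10000, a mean of 6.33 ± 4.76 (n = 4), and plate 1 was low: 24 of its 25 UMIs sat in a single well. Wells with a trace and wells with much were told apart by a chosen cut at 10 UMIs. In 120 wells there was 1 UMI, in 58 there were 2 to 8, and 62 wells with 10 to 1049 UMIs held 95.7% of the total. Whether the cell of a trace well made Saa3 was not tested. Wells that met the red cell list had a UMI in 4 of 31 (12.9%, median depth 2748 transcripts against 7842 in fibroblast-marker wells). Of these 31 wells, 17 had exactly the 3 markers needed, and Col1a1 was found in 93.5% of the 31. Among wells that failed the filters, 4.27% had a Saa3 UMI. The 62 wells were also deeper than wells without Saa3 (median 16455 against 6859 transcripts).

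Saa1 followed at a low level, in 36 wells with 155 UMIs, at 0, 0.228, 0.134 and 0.177 per 10000 (mean 0.135 ± 0.0978, n = 4). Of the 36 wells, 17 held 1 UMI and 5 held 10 or more, up to 32. Its neighbour Saa2 had 22 UMIs. Counts of wells by UMI number, plotted for the class II sum, Slpi, Saa1 and Saa3, set the class II genes apart: none of their wells reached 10 UMIs.

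**Figure D1:**
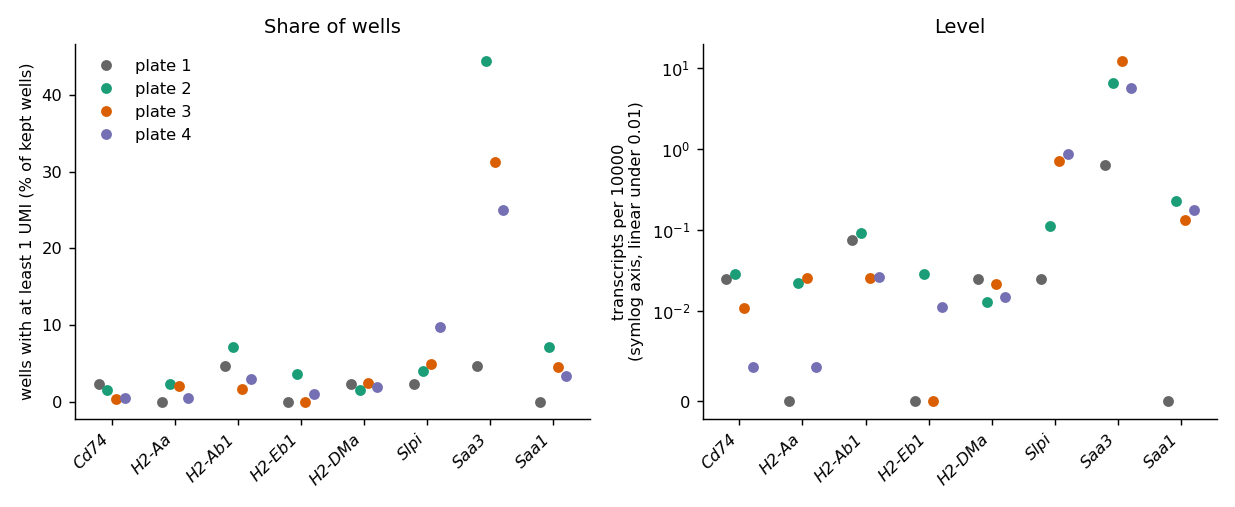
Share of kept wells with at least 1 UMI (left, %) and level in transcripts per 10000 on a symlog axis (right) for each of the 8 genes; each point is 1 plate. Saa3 was found in 4.65 to 44.4% of wells and each class II gene in at most 7.20%.

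**Figure D2:**
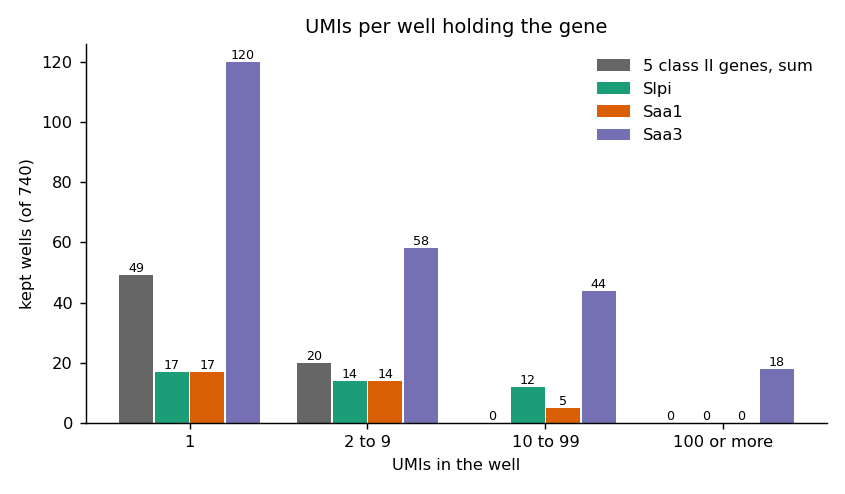
Number of kept wells (bars, of 740) by the UMIs they held of the 5 class II genes together, Slpi, Saa1 and Saa3. Class II wells had 1 UMI (49 wells) or 2 to 9 (20 wells), whereas 62 wells had 10 or more Saa3 UMIs.

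By group of wells, Slpi sat with the myCAF markers. Of the 30 fibroblast-marker wells with Slpi, 24 were myCAF-marker wells (352 UMIs) and 3 were iCAF-marker wells (10 UMIs). In myCAF-marker wells the level was 0, 0.401, 1.90 and 3.10 per 10000 in plates 1 to 4, and in iCAF-marker wells 0, 0, 0 and 0.117. In plate 2, 0 of 66 iCAF-marker wells had a UMI, which at 3 counts of the total allows a share of wells with a UMI of up to 4.55%. Thinned to 1000 UMIs, 11 of 220 myCAF-marker and 1 of 167 iCAF-marker wells kept a Slpi UMI. In plates 2, 3 and 4 the myCAF-marker wells held 32, 126 and 194 Slpi UMIs and the iCAF-marker wells 0, 0 and 10. Plate 1 held 5 iCAF-marker wells and no Slpi in either group, and Slpi was under the count filter of the test, so no test is given. Wells that met the smooth muscle list had Slpi in 6 of 98 and those of the pericyte list in 5 of 87. With all 4 plates, 6.72% of 6903 genes passed in this comparison: 223 (3.23%) were higher and 241 (3.49%) lower in iCAF-marker wells.

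Saa3 did not follow that split. Its level was 0, 5.34, 0.354 and 11.6 per 10000 in iCAF-marker wells and 0.155, 7.70, 34.4 and 6.21 in myCAF-marker wells of plates 1 to 4, so the order differed between plates. The log2 fold change was -1.27 ± 0.82 (adjusted p = 0.52, edgeR, n = 4 plates), and without plate 3 it was 0.26. After a log2 fold change, here and below, ± gives a standard error derived from the edgeR F statistic, not an SD over plates. Wells with 10 or more Saa3 UMIs were 20 of 167 iCAF-marker wells (12.0%, interval 7.47 to 17.9) and 19 of 220 myCAF-marker wells (8.64%, 5.28 to 13.2), besides 7 of 98 on the smooth muscle list and 6 of 87 on the pericyte list. Of 155 Saa1 UMIs, 83 were in iCAF-marker wells, and 50 of these 83 lay in 2 wells. The level there was 0, 0.702, 0.0177 and 0.340 per 10000 against 0, 0.0376, 0.0150 and 0.0794 in myCAF-marker wells, where plate 3 rests on 1 UMI in each group. Saa1 was found in 9.58% of iCAF-marker wells. In fibroblast-marker wells that matched more than 1 subset list equally well it was found in 11.1% (6 of 54, 21 UMIs). Pericyte list wells held 21 UMIs. Higher in iCAF-marker wells were 3 of 10 tested acute-phase genes, the lipopolysaccharide-binding Lbp (log2 1.64 ± 0.24), the protease inhibitor Serpina3n (1.12 ± 0.17) and complement C3 (1.02 ± 0.15), while haptoglobin (Hp) was lower (-3.64 ± 0.32); all 4 passed by edgeR. Of 9 tested class II pathway genes 1 passed, Irf1, which was higher (log2 0.86 ± 0.21, adjusted p = 0.013, edgeR). All 4 tested genes of the telocyte list passed by edgeR. Bmp7 (log2 -3.29 ± 0.33), Wnt5a (-2.61 ± 0.26) and Bmp5 (-2.38 ± 0.46) were lower in iCAF-marker wells, and Enpp2 (1.14 ± 0.25) was higher.

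Class II levels were low in both groups, and their ranges overlapped: 0, 0.145, 0.0177 and 0.0234 per 10000 in iCAF-marker wells and 0.310, 0.226, 0.135 and 0.111 in myCAF-marker wells of plates 1 to 4. The myCAF-marker value was the higher in each plate, on 36 UMIs against 14. H2-Ab1 made most of this, with 21 UMIs in 14 myCAF-marker wells and 3 UMIs in 3 iCAF-marker wells; it was under the count filter, and without that filter its log2 difference was -2.67 ± 1.03 (adjusted p = 0.14, edgeR). Thinned wells with a class II UMI were 7 of 220 and 3 of 167. Before thinning, the share with class II was 10.5% of myCAF-marker and 6.59% of iCAF-marker wells. It was 10.2% on the smooth muscle list (10 of 98) and 13.8% on the pericyte list (12 of 87). In fibroblast-marker wells that matched more than 1 subset list equally well it was 16.7% (9 of 54). H2-DMb1, outside the 5 genes, had 17 UMIs in iCAF-marker and 9 in myCAF-marker wells. No comparison was made for the 12 telocyte-marker wells, because only 1 plate had at least 5 of them.

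**Figure D3:**
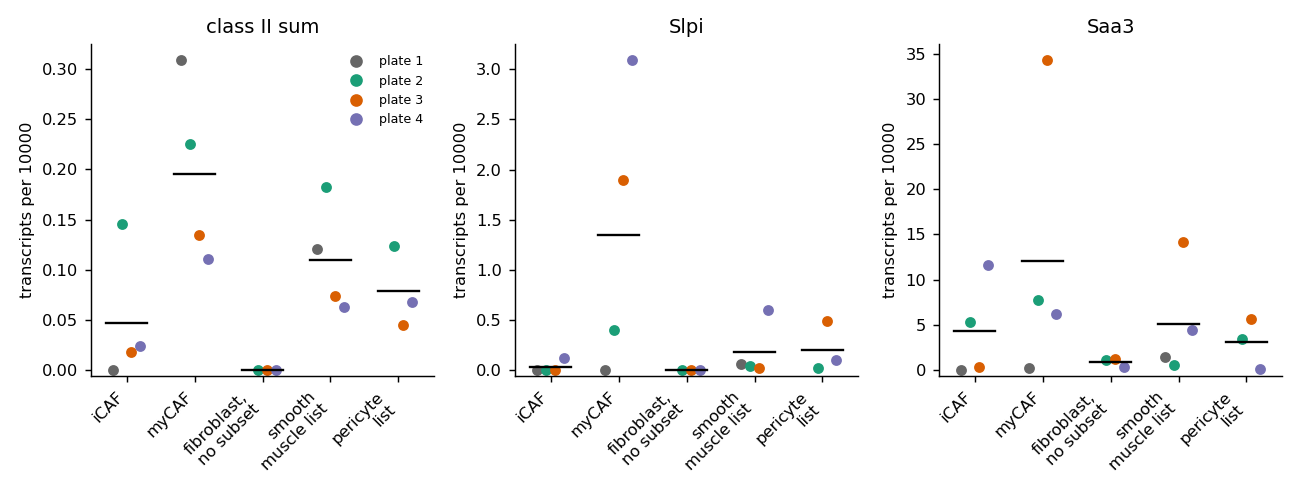
Level in transcripts per 10000 (linear axes) of the class II sum, Slpi and Saa3 by group of wells; points are plates with at least 5 such wells and the line is their mean. Slpi was highest in myCAF-marker wells of plates 3 and 4 (1.90 and 3.10). The class II sum was higher in myCAF-marker than iCAF-marker wells in each plate, and the order of Saa3 differed between plates.

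Whether the genes share wells was read first by counting. Class II and Slpi UMIs met in 11 wells, where the product of their shares gives 3.64; class II and Saa3 met in 33 (24.5), Slpi and Saa3 in 24 (13.2), and all 3 in 8. Before thinning, the share with the second gene was higher by 16.9 ± 8.61, 20.1 ± 22.3 and 43.3 ± 37.3 percentage points (SD over 4 plates) in wells with the first, in 4, 3 and 4 of 4 plates; the first and last of these reached the smallest p possible with 4 plates. In plate 1 the first and last rested on 1 well with Slpi, of 53796 transcripts. For Slpi and Saa3 that plate gave 97.6 points, against 16.25, 37.2 and 22.2 in plates 2 to 4. Within unthinned fibroblast-marker wells the exact sign-flip permutation p was 0.25 for each, on 4 and 3 plates. Deep wells show more of every gene. After thinning to 1000 UMIs, 2 wells had class II and Slpi (0.331 from the shares), 4 had class II and Saa3 (1.93) and 2 had Slpi and Saa3 (1.89). All thinned values in this report come from a single random draw per well, and counts this small could differ in another draw. In thinned wells the share with Slpi was 10.8 ± 24.1 percentage points higher (SD over plates) with class II than without it (n = 4, exact sign-flip permutation p = 1, two-sided). Only plate 4 was higher, by 47 points on 2 wells, and without it the mean was -1.24 points. For Saa3 with and without class II the difference was 10.1 ± 16.9 points, higher in 2 of 4 plates (exact p = 0.5). For Saa3 with and without Slpi it was 1.13 ± 26.5 points, higher in 1 of 3 plates (exact p = 1), and -13.9 points without plate 3. The smallest p these designs allow is 1 in 8 with 4 plates and 0.25 with 3. No outcome could therefore pass a threshold of 0.05, and these tests cannot show whether genes share wells.

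Wells with much Slpi and wells with much Saa3 met in 2 cases. Of the 12 wells with 10 or more Slpi UMIs, 7 had no Saa3 UMI, 3 had 1 or 2, and 2 had 10 or more: one of plate 3 held 75 Slpi and 1049 Saa3 UMIs, the highest Saa3 count of all, and another of that plate 16 and 128. Of the 12, 3 had a class II UMI. None had Saa1, Ptprc, Epcam or the mesothelial marker Msln, and all 12 had Col1a1 (11 to 709 UMIs) and Pdgfra (2 to 54). Over all kept wells, 62 of 740 (8.38%) had 10 or more Saa3 UMIs. Of these 62 wells, 8 had Slpi and 8 had class II, against 43 and 69 of all 740 (5.81 and 9.32%). Saa1 and Saa3 shared 26 wells (13.2 from the shares); of 13 wells with 3 or more Saa1 UMIs, 11 were among the 62 and none lacked Saa3. Thinned, the share with Saa3 differed by 55.2 ± 56.3 points with and without Saa1 (n = 3, exact p = 0.5, where 0.25 is the smallest possible).

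**Figure D4:**
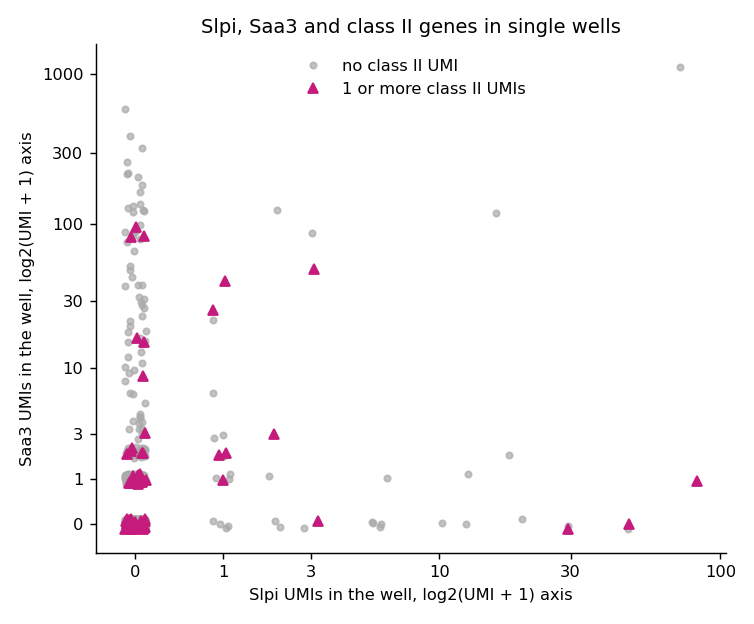
Slpi against Saa3 UMIs in each of the 740 kept wells, both on log2(UMI + 1) axes with small random shifts; triangles are the 69 wells with a class II UMI. Most wells lie on one axis or at 0, and 2 wells have 10 or more UMIs of both Slpi and Saa3.

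Fibroblast-marker wells with and without Slpi were then compared over all genes, on counts summed per plate in plates 2 to 4 (8, 8 and 14 wells against 172, 153 and 115). Wells with Slpi had far more of the collagenase gene Mmp13 and the stromelysin gene Mmp10, which degrade matrix, and of Il1rl1, the receptor for IL-33. Mmp13 stood at 221, 72.7 and 83.9 transcripts per 10000 in plates 2, 3 and 4 against 2.74, 5.88 and 4.46 without Slpi, with no overlap (log2 4.67 ± 0.45, adjusted p = 3.3e-04, edgeR). Mmp10 stood at 82.0, 33.1 and 27.2 against 1.22, 3.41 and 2.42 (log2 4.20 ± 0.48, adjusted p = 8.1e-04, edgeR). Il1rl1 stood at 32.6, 66.7 and 14.0 against 1.10, 2.29 and 1.79 (log2 4.23 ± 0.40, adjusted p = 2.8e-04, edgeR). In the 12 wells with 10 or more Slpi UMIs the median was 161 UMIs of Mmp13, 110.5 of Mmp10 and 50.5 of Il1rl1, and each was found in all 12. Mmp13 had only 3 UMIs in a well of plate 2 and 1 UMI each in a well of plate 3 and a well of plate 4. That plate 4 well, on the smooth muscle list, also had only 1 Mmp10 and 4 Il1rl1 UMIs. Of the 12 wells, 9 were fibroblast-marker wells and so are part of the wells with Slpi compared above.

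In all, 107 genes (1.39%) were higher and 87 (1.13%) lower with Slpi, 2.52% of 7702 tested genes. Among the 10 higher genes with the largest folds were also the secreted hormone Stc1 (log2 4.43 ± 0.32), the transporters Slco1a5 (4.94 ± 0.55) and Slco4a1 (3.99 ± 0.85), the costimulatory receptor Tnfrsf9 (4.43 ± 0.70), Glipr1 (4.36 ± 0.68) and 9930013L23Rik (4.31 ± 0.28). The ligand gene Wnt7b had 25 counts with Slpi and 1 without, a ratio of 227 with a counting interval of 37.1 to 9313. On the lower side, Coch, an extracellular protein, Angptl1, Edil3, an integrin ligand, Maob, a monoamine oxidase, and the junction protein Ppl had 0 counts in wells with Slpi. Against a floor of 3 counts over the group, they were at least 9.48-fold (Coch), 10.5-fold (Angptl1), 7.64-fold (Edil3), 4.78-fold (Maob) and 4.67-fold (Ppl) lower. With 1 count in wells with Slpi, the ratio of the other wells to these was 42.9 for the carboxylesterase Ces1d (counting interval 7.65 to 1698), 36.7 for Gucy1a3 (6.54 to 1454), 31.0 for the prolactin receptor Prlr (5.51 to 1228) and 20.7 for Stmn2 (3.67 to 823). The protease inhibitor Ctla2a was lower by a log2 of -5.20 ± 0.56. Over all kept wells in place of fibroblast-marker wells, Angptl1 and Prlr were no longer called (log2 -1.47 and -0.73).

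The marker lists moved in part with Slpi. Of 10 iCAF genes 4 fell and none passed as higher: Il6 (log2 -2.34 ± 0.37), Cxcl12 (-2.24 ± 0.45), Ccl2 (-2.04 ± 0.28) and Cd34 (-1.88 ± 0.43), and the median over the 10 was -1.97 against -0.06 over all genes. The chemokine genes Cxcl2 (log2 1.25 ± 0.30, adjusted p = 0.051, edgeR) and Cxcl1 (0.85 ± 0.25, adjusted p = 0.13), on the same list, had higher values with Slpi in 3 of 3 plates. Of 10 myCAF genes 3 rose, Col12a1 (1.69 ± 0.23), Tpm1 (1.21 ± 0.26) and Tnc (1.06 ± 0.25), and Spp1 fell (-2.48 ± 0.40). Of 5 tested telocyte genes 3 rose: the BMP ligand Bmp7 (2.52 ± 0.35), the tissue factor gene F3 (1.95 ± 0.44) and Wnt5a (1.61 ± 0.27). Enpp2, on the same list, had a lower value with Slpi in 3 of 3 plates (-1.37 ± 0.47, adjusted p = 0.20, edgeR). Of 10 tested acute-phase genes 3 fell, Lbp (-2.16 ± 0.35), Serpina3n (-1.86 ± 0.28) and Cebpd (-1.37 ± 0.32), while Hp had a higher value with Slpi in 3 of 3 plates (1.19 ± 0.33, adjusted p = 0.096, edgeR). Of 12 tested class II pathway genes 0 passed by edgeR. Wells with Slpi were deeper (medians of 12431, 16439 and 11924 against 7223, 7017 and 8902 transcripts) and mostly myCAF-marker wells, and the part of either in these differences was not tested. Immune markers were found in 3 of the 30 wells with Slpi and 43 of 466 without it, at 0 to 0.174 and 0.0940 to 0.135 per 10000. Over all kept wells they were found in 9 of 43 wells with Slpi (20.9%) and 67 of 697 without it (9.61%). Median depths there were 16129 and 7972 transcripts, and the 1 Ptprc UMI lay in a well with Slpi.

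Saa3 and Saa1 showed no steady difference with Slpi. Saa3 stood at 4.19, 92.1 and 1.26 per 10000 in wells with Slpi of plates 2, 3 and 4. In the others it was at 10.2, 6.18 and 9.63, so plate 3 went the other way. The well with 1049 UMIs was among the wells with Slpi of plate 3, and its part in that direction was not tested. The log2 fold change was -0.46 ± 1.12 (adjusted p = 0.93, edgeR), and without plate 3 it was -2.17 (adjusted p = 0.010). Saa1 had a log2 fold change of -0.40 ± 1.06 (adjusted p = 0.94, edgeR).

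Of the class II genes, H2-Ab1 alone had more UMIs per transcript with Slpi than without in each of plates 2 to 4, at 0.729, 0.0623 and 0.174 per 10000 against 0.0588, 0.00701 and 0.0142. This was noted after its values were seen and rests on 13 UMIs in 6 wells against 13 UMIs in 13 wells, a ratio of 8.98 (counting interval 3.83 to 21.0), and without the well with 7 UMIs it was 4.29 (1.34 to 12.1). For the sum of the 5 genes the ratio was 2.99 (1.55 to 5.47), and without that well 1.65 (0.672 to 3.54). H2-Ab1 was under the count filter; without a filter it had a log2 fold change of 3.29 ± 0.94 (adjusted p = 0.020, edgeR). Cd74 and H2-DMa had 0 UMIs in the 30 wells with Slpi and 8 each in the 440 others, and H2-Aa and H2-Eb1 had 1 each against 9 and 7.

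**Figure D5:**
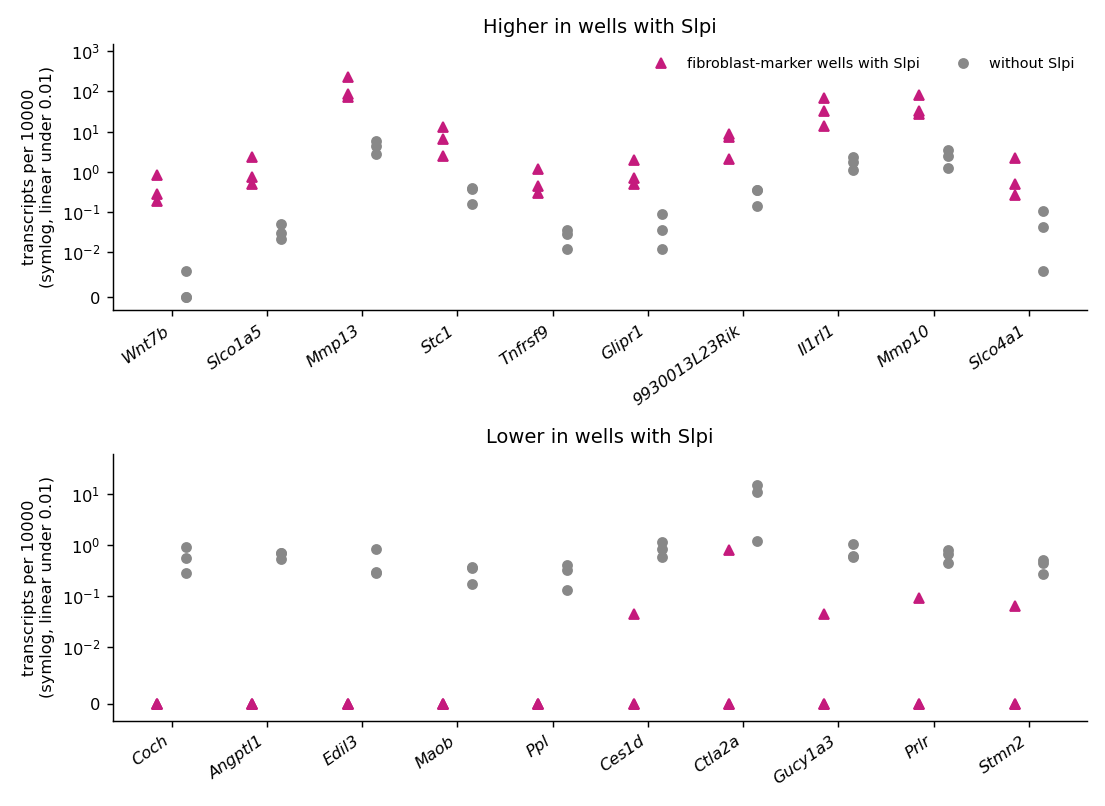
Levels in transcripts per 10000 (symlog axes) of the 10 genes with the largest called folds up (top) and down (bottom) in fibroblast-marker wells with Slpi (triangles) against without (circles); each point is 1 of plates 2 to 4. Mmp13 was at 72.7 to 221 with Slpi and 2.74 to 5.88 without.

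Fibroblast-marker wells with Saa3 differed from those without in few genes. In plates 2 to 4, 4 genes (0.0515%) were higher and 4 (0.0515%) lower, 0.103% of 7765. Saa1 stood at 0.587, 0.153 and 0.530 per 10000 against 0.0949, 0.0107 and 0 (log2 3.74 ± 0.56, adjusted p = 0.047, edgeR, 3 of 3 plates), but by DESeq2 the adjusted p was 0.54. Pi16, a marker of adventitial fibroblasts, stood at 3.84, 4.44 and 5.94 against 1.61, 1.22 and 2.01 (log2 1.61 ± 0.15, adjusted p = 0.0022, edgeR), and the carboxypeptidase-like Cpxm1 at 8.81, 4.53 and 15.6 against 2.68, 2.12 and 4.81 (log2 1.57 ± 0.15, adjusted p = 0.0022, edgeR). Both lost the call when Saa3 was read in thinned wells (adjusted p = 1.0 for Pi16, log2 -0.094, and 0.37 for Cpxm1). Spp1, the osteopontin gene, was higher by a log2 of 2.43 ± 0.33, but with Saa3 read in thinned wells it was lower (-3.93, adjusted p = 0.0052, edgeR).

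Lower with Saa3 were the matrix protein Thbs4, at 0.428, 0.290 and 0.343 per 10000 against 2.20, 1.58 and 2.78 (log2 -2.53 ± 0.19, adjusted p = 6.0e-04, edgeR), the imprinted RNA H19 (-3.61 ± 0.40), the neuropeptide gene Tac1 (-2.53 ± 0.37) and the WNT antagonist Dkk2 (-2.01 ± 0.23). Of these, Thbs4 is also on the list that sets Cajal-type wells apart. Of 10 tested acute-phase genes 0 passed; Lcn2, an iron-sequestering defence protein, had a log2 of 2.10 ± 0.50 (adjusted p = 0.19, edgeR). Of 11 tested class II pathway genes 0 passed. At an unadjusted p under 0.05 there were 698 genes. Slpi had a log2 fold change of 0.66 ± 0.30 (adjusted p = 0.55, edgeR). Class II UMIs came at 27 in the 168 wells with Saa3 and 33 in the 302 without, a ratio per transcript of 0.949 (counting interval 0.549 to 1.63). Immune markers were found in 10.7% of wells with Saa3 and 8.56% of those without.

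Fibroblast-marker wells with a class II UMI (23, 10 and 8 wells in plates 2, 3 and 4) differed from the others in 3 of 7760 genes by edgeR (0.0387%; 1 higher, 0.0129%, and 2 lower, 0.0258%), with 310 at an unadjusted p under 0.05 and 6 genes by DESeq2. The growth factor gene Igf2 was higher, at 0.940, 1.96 and 0.793 per 10000 against 0.193, 0.440 and 0.182 (log2 2.17 ± 0.30, adjusted p = 0.027, edgeR), and the fold stayed at 2.09 to 2.22 leaving out a plate, though the call was lost without plate 2 or plate 3 (adjusted p = 0.36 and 0.41). Spp1 (log2 -3.99 ± 0.49) and the globin gene Beta-s (-3.75 ± 0.33) were lower; without plate 3 Spp1 lost the call (log2 -3.87, adjusted p = 0.18), and with at least 2000 transcripts per well Beta-s did (adjusted p = 0.32). Wells with class II were deeper here too (median 10634 against 7359 transcripts), and the part of depth was not tested. Of 11 tested class II pathway genes 0 passed. Slpi stood at 0.1296, 0.302 and 11.0 per 10000 against 0.186, 0.860 and 0.617, so only plate 4 was higher (log2 1.44 ± 0.85, adjusted p = 1.0), and Saa3 at 8.46, 3.92 and 0.0991 against 10.1, 15.9 and 9.01, lower in 3 of 3 plates (log2 -1.97 ± 0.64, adjusted p = 1.0; unadjusted p = 0.0093, edgeR). Saa1 was not called either (log2 -0.74 ± 1.14, adjusted p = 1.0).

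Levels were also correlated over single fibroblast-marker wells within a plate, where wells share a library but differ in depth. Pearson correlation of log2(transcripts per 10000 + 1) was averaged over plates, among 7506 genes. The genes that followed the members most closely were then listed. For Slpi these were Mmp10 (0.59), Mmp13 (0.59), Il1rl1 (0.56), 9930013L23Rik (0.56) and Piezo2 (0.51), each between 0.41 and 0.70 in plates 2 to 4. For Saa3 over 4 plates they were Angptl7 (0.43), Lcn2 (0.38), Sfrp4 (0.36), 1110008P14Rik (0.35) and Grpel2 (0.31), but 1 Saa3 UMI in plate 1 gave r = 1 there for Angptl7 and Grpel2. Over plates 2 to 4, a choice made after seeing this, Lcn2 (0.38), Cyp7b1 (0.35), the copper carrier Cp (0.32), Cpxm1 (0.32) and Fxyd5 (0.31) led. For the class II sum the highest values were 0.27 (Sorbs3), 0.26 (Dtd1), 0.26 (Lrrfip2), 0.26 (Surf1) and 0.26 (Commd2), too weak in counts this sparse to be read as a finding.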

How the data were processed

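Each plate was 1 library (SORT-seq with CEL-Seq2, per the labels' protocols), and BWA and mm10 are named, with no version, in the submitters' processing notes; no source names the counting program. The authors deposited expected counts per gene and well. Every value above 0 lay within 0.01 of a saturation correction of whole UMIs out of 4096 possible ones, so UMIs were recovered by undoing it. A well joined a marker class with at least 3 of its markers and 5 of their transcripts, and no well was removed as a doublet. Plates use the same well numbers, so shared barcodes tell nothing here.

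A gene was positive in a well from 1 UMI. Rounded counts, summed per plate and group of wells (at least 5 wells), were compared with edgeR 4.0.16 (quasi-likelihood, TMM, filterByExpr, plate as block, R 4.3.3), with Benjamini-Hochberg adjustment over genes that did not define the wells and a threshold of 0.05; DESeq2 1.42.0 was an alternative. Sharing of wells was tested by exact sign flips over plates. Simulated counts recovered 65, 85, 56 and 82% of 100 genes changed by a log2 of 2, and 13, 43, 7 and 50% at a log2 of 1 (Slpi, Saa3, class II and iCAF comparisons, 7703, 7766, 7761 and 6923 genes). The members and lists were chosen with earlier results of these data known. Named genes are the members, called list genes, the 10 largest called folds per direction with the same sign in every plate, and the 5 highest correlations. Plate 1 came from another sequencing run, per the deposited files' names, so run and plate 1 cannot be told apart.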

Additional observations from a re-analysis of the deposited data

Results flagged for a closer look

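In 7 cases 1 of the 4 plates stood far from the others in a member's level, given here in transcripts per 10000; chance flags about 1 in 20 groups of evenly measured values, and where the other plates are at 0 a single UMI can do so. In iCAF-marker wells these were plate 2 for Cd74 (0.0397), H2-Ab1 (0.0397), H2-Eb1 (0.0132) and the class II sum (0.145), and plate 4 for Slpi (0.117). In myCAF-marker wells they were plate 1 for Cd74 (0.155) and plate 3 for H2-DMa (0.0449). The single-gene values rest on 1 to 10 UMIs each, and the other plates were at 0, save plate 2 for Cd74 in myCAF-marker wells (0.0125).

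The 796 wells that failed the filters, which no comparison used, held more than the 3 counts taken as a floor for 4 members: 8 UMIs of Cd74, 17 of H2-Ab1, 11 of Slpi and 43 of Saa3. Of the H2-Ab1 UMIs, 14 came from 8 wells of plate 1. The class II sum there was 0.780 per 10000, on 384464 transcripts.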

How the results depend on the processing

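The numbers of called genes moved with the processing. With Slpi they were 194 as reported, 435 with no count filter, 129 with no replicate block, 114 with at least 4 markers per class, 297 with 2 transcripts needed, 99 over all kept wells and 110 to 261 leaving out a plate. With Saa3, 8 became 5 by DESeq2, 211 with no filter, 1 with no replicate block, 48 with 4 markers, 3 in thinned wells and 8 to 36 leaving out a plate. With class II, 3 became 6 by DESeq2, 45 with no filter, 1 with no replicate block, 17 with at least 10 wells per sum and 1 to 17 leaving out a plate. For iCAF-marker against myCAF-marker wells, 464 became 292 by DESeq2, 719 with no filter, 176 with no replicate block, 959 with 4 markers and 151 to 547 leaving out a plate. The cause was not tested.

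Signs turned for several results, of which Spp1 and Pi16 had been called. Saa3 in the Slpi comparison had a log2 of 1.81 with no replicate block and -2.17 to 1.40 leaving out a plate, and Saa1 -3.32 to 0.74. Slpi in the Saa3 comparison was -0.019 with 2 transcripts needed; in the class II comparison it was -1.07 with at least 10 wells per sum and -1.07 to 2.53 leaving out a plate, and Saa1 there was 0.29 with 4 markers, 0.16 over all kept wells and -4.01 to 1.21 leaving out a plate. Saa3 in iCAF-marker against myCAF-marker wells ran from -3.14 to 0.26 leaving out a plate. In the Saa3 comparison, Spp1 turned to -3.93 and Pi16 to -0.094 in thinned wells, and Spp1 to -3.07 with 10 or more Saa3 UMIs needed, an alternative chosen after seeing the data, as were all kept wells. The difference in Saa3 share with and without Slpi was -3.26 points in fibroblast-marker wells, -2.05 with 4 markers there and -13.9 to 11.3 leaving out a plate; that in Slpi share with and without class II was -1.24 to 15.1. Leaving out a plate moved some levels in fibroblast-marker wells by over 1.5 times (per 10000): Cd74 from 0.0251 to 0.0147 without plate 1, H2-DMa from 0.0262 to 0.0162 without plate 1, H2-Aa from 0.0151 to 0.00755 without plate 3, H2-Eb1 from 0.0113 to 0.00407 without plate 2, Slpi from 0.562 to 0.329 without plate 4 and Saa1 from 0.166 to 0.0923 without plate 2.

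Not run for want of 2 plates with enough wells: Slpi with 10 wells per sum or thinned, class II with 2 transcripts or thinned, and the telocyte comparison. No paired analysis beyond the plate block was possible because there is 1 group. Depth limits class II, where 49 of 69 wells rest on 1 UMI.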
